A study of Mus musculus with 38 samples.

Results

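The T cell receptor reaches the cell surface only together with the CD3 chains. Cd3e, Cd3d and Cd3g encode the epsilon, delta and gamma chains, which pair as epsilon-gamma and epsilon-delta dimers, and Cd247 encodes the zeta chain, which forms the dimer that carries most of the signaling motifs. These motifs are phosphorylated by the kinase Lck and then bind the kinase Zap70. In the thymus the CD3 genes are switched on as progenitors commit to the T lineage after Notch signaling has begun. Cd3e, Cd3d and Cd3g lie side by side in a cluster, Cd247 lies on another chromosome, and T cell enhancers have long been described downstream of Cd3d and Cd3e.

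The peaks described here were all reproducible ChIP-seq peaks whose centre lay from 50 kb before to 50 kb after the body of 1 of these 4 genes in mm10 (GRCm38), each peak counted once. The windows of the 3 clustered genes merged into 1 window of 140.1 kb (chr9:44919572-45059627), and the Cd247 window spanned 188.6 kb (chr1:165738681-165927277). Together they held 174 of the 359759 peaks of 17 lists, with 86 in the cluster and 88 at Cd247, and 16 of the 17 lists had at least 1 peak there. The 174 peaks fell on 39 separate sites, a site being a run of overlapping peaks. The windows also held Atp5l, Ube4a, Mpzl2 and Mpzl3 around the cluster and Creg1 and Pou2f1 around Cd247, and peaks at these neighbors were counted as well.

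All samples came from Cas9-LP, a lymphoid progenitor (LP) line from mouse fetal liver that lacks Ebf1, a factor needed for B cells, and carries a Rosa26-Cas9 knock-in. LP cells were kept on OP9 stroma, whereas Phase 1 and Phase 2 cells were on OP9-DLL4 stroma, which presents a Notch ligand. In the study, Phase 1 cells had been stimulated for 2 days, and Phase 2 is the later stage, after commitment to the T lineage. RUNX1, CTCF (which binds insulators and loop anchors), Med12 (a Mediator subunit) and the acetyltransferase p300 were profiled in LP and Phase 1, and Notch1-IC, the released intracellular domain of Notch1, at these stages and in Phase 2 with a mixture of antibodies. Further lists came from LP cells with RUNX1 ChIP after control guides (sgCont) or Ctcf guides (sgCTCF), from Phase 1 cells with RUNX1 ChIP after sgCont or sgMed12, and from Phase 1 cells with Med12 ChIP after sgCont or sgCbfb. Cbfb is the partner without which RUNX proteins bind DNA poorly. Each list combined 2 replicates, and 4 of the 38 samples were inputs with no list of their own.

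Because the replicates were merged, no difference between lists could be set against a spread between replicates, and no test was made. Shares carry 95% Wilson intervals that cover counting error only. Peaks of a locus share a chromosomal neighborhood and are not replicates. The lists held 30020 to 49116 peaks for RUNX1, CTCF, Med12 and p300, but only 874 to 2094 peaks for RUNX1 after guides, and for Notch1-IC 1585 peaks in LP, 152 in Phase 1 and 352 in Phase 2. Peak scores, which are at least 15 in every list, are given with the percent of the same list that scored as high or higher, since scores of different lists are not on 1 scale.

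The sequences of the sites on which the description turns are given from the plus strand of GRCm38, except for the promoter, and strings searched on both strands are in capitals. The strings were TGTGGT or TGCGGT for RUNX, GTGGGAA for RBPJ (through which Notch1-IC reaches DNA), GGAAGT for ETS factors, CAGCTG or CAGGTG for E-box factors, CTTTGA for TCF factors, AGATAA for GATA factors, and the core consensus of CTCF with at most 1 mismatch. A match describes the letters and is not shown to be a bound site. The strongest RUNX1 site of both windows lay in the last exon of Cd3d, and 30 bases around its RUNX string are shown (chr9:44986664-44986693).
Cd3d, last exon: ttttgctgccttACCACAgcccaaagcagg

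The Cd3e site with the highest score among Phase 1-specific RUNX1 peaks of the cluster lay in intron 2 (chr9:45009131-45009330). It held 2 E-box strings and 1 ETS string.
Cd3e, intron 2: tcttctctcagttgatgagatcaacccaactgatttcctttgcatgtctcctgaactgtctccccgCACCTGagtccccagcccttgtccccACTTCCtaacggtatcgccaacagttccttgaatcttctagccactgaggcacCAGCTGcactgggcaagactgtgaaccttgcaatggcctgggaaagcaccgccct

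The stronger of the Phase 2 Notch1-IC peaks lay upstream of Cd3e (chr9:45011470-45011669). This was the only Notch1-IC site of the windows with an RBPJ string, which lay on the minus strand between a pair of E-box strings, with a TCF and a GATA string beside them.
Cd3e, upstream: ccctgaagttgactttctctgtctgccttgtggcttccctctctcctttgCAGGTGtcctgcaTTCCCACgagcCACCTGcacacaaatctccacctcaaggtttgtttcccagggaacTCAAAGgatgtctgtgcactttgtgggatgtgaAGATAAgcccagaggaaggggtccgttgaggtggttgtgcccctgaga

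The only Notch1-IC peak of the windows from unstimulated cells lay in intron 1 of Cd247 (chr1:165811340-165811539). It held 1 RUNX and 1 E-box string.
Cd247, intron 1, Notch1-IC in LP: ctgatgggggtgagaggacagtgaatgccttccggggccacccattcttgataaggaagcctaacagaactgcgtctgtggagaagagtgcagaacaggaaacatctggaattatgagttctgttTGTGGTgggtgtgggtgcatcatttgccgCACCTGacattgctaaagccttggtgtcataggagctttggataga

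Each window held 1 LP-specific RUNX1 peak, beyond the 3' end of Cd3g (chr9:44966804-44967003) and in an intron of Creg1 upstream of Cd247 (chr1:165771645-165771844). Both lay on CTCF peaks. The site in Creg1 held a RUNX string and the CTCF core, in which an E-box string is contained, whereas none of the strings was found in the 200 bases around the RUNX1 centre beyond Cd3g.
Cd3g, downstream: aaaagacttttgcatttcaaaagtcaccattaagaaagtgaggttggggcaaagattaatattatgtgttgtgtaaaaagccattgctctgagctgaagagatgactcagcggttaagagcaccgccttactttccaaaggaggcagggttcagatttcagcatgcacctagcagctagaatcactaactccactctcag
Creg1, intron: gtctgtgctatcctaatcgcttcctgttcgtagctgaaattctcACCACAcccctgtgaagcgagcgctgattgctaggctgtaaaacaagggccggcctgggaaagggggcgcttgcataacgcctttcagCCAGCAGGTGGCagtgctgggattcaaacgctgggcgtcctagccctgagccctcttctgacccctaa

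Of the 4 gene starts, only that of Cd3g had a peak over the stretch from 250 bases before to 50 bases after it. The Cd3e peak 0.85 kb before its start lay outside this stretch, although HOMER annotates it as promoter. For Cd3g, the 250 bases before its start are printed in the direction of the gene (chr9:44980432-44980681, minus strand, from RefSeq on GRCm38). An RBPJ string stood 175 bases before the start, with 2 E-box strings and a GATA string nearer to it. The RBPJ string was found in 6.38% of 32851 promoters, the E-box strings in 32.9% and the GATA string in 11.2%. These shares were counted over 300 bases, which also take in the 50 bases after the start.
Cd3g, promoter: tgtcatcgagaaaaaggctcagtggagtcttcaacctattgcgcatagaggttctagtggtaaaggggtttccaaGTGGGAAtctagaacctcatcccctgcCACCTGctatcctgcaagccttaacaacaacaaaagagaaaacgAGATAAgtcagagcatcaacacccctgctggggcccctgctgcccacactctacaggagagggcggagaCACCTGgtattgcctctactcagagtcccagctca

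At Cd3d, whose product pairs with the epsilon chain, the most highly ranked RUNX1 site of the windows was present at both stages. The peak lay within the last exon, 4.82 kb after the start (chr9:44986449-44986777 in Phase 1), in a part that the annotation gives as 3' UTR. Its RUNX1 score was 370.8 in LP, with 0.575% of the list as high or higher, and 491.1 in Phase 1, with 0.245%. Med12 scored 248.8 in LP (2.89% of the list) and 244.3 in Phase 1 (1.31%). The p300 score was 364.7 in LP (2.41%) and 295.6 in Phase 1 (3.29%). The site thus ranked within the top 3.29% of all 6 lists, before and after Notch stimulation. It was not the highest for Phase 1 Med12, where the Atp5l promoter near the window edge scored 293.6 (0.695%). RUNX1 scored 120.3 in LP and 177.1 in Phase 1 at that promoter. At the Cd3d site a weak CTCF peak of score 18.3 was listed in LP only. It was the only LP-specific CTCF peak among the 17 LP CTCF peaks of the windows. No peak lay within 1 kb of the Cd3d start.

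At Cd3g, which encodes the gamma chain, the promoter carried RUNX1, Med12 and p300 at both stages. In LP, RUNX1 and Med12 were close to the lower end of their lists, and p300 was in the lower part of its own. RUNX1 scored 17.4 in LP (93.7% of the list as high or higher) and 36.6 in Phase 1 (57.6%). Med12 scored 19.0 (90.6%) and 36.3 (54.6%), and p300 26.1 (77.5%) and 44.0 (50.9%). The Phase 1 lists are longer, which by itself lowers the percent of a given peak. Counted from the top, the promoter peak stood at place 29930 in LP and 22040 in Phase 1 for RUNX1, 27151 and 21311 for Med12, and 27939 and 24961 for p300. The place was thus higher in Phase 1 by count as well, a difference whose error is unknown. The promoter was in none of the guide lists and in none of the Notch1-IC lists.

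At Cd3e, which encodes the epsilon chain shared by both dimers, RUNX1 peaks near the start were listed in Phase 1 and not in LP. They numbered 3, at 0.38 kb after the start in intron 2, 0.85 kb before it and 1.95 kb before it. In intron 2 (chr9:45009066-45009394) the Phase 1 scores were 30.9 for RUNX1 (64.8% of the list as high or higher), 46.4 for Med12 (43.5%) and 110.0 for p300 (19.7%). At 0.85 kb before the start the scores were 21.3 for RUNX1 (82.3%) and 24.1 for Med12 (74.7%), with no p300 peak. At 1.95 kb before it they were 25.9 for RUNX1 (73.0%), 40.6 for Med12 (49.7%) and 68.9 for p300 (34.2%). No LP list of any factor had a peak at these 3 sites. The RUNX1 peaks were thus weaker than most of their list, whereas p300 in intron 2 was in the upper part of its own.

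The Phase 2 Notch1-IC list had 2 peaks in the windows, and both lay on sites of this group. They scored 27.5 in intron 2 (31.0% of the list as high or higher) and 39.4 at 1.95 kb before the start (18.8%). The Phase 1 Notch1-IC list, which held 152 peaks, had none in either window. The Notch1-IC lists of both stimulated stages are shorter here than in the study's own account, and an absence holds only for the lists as used here. Among 21911 protein-coding genes, 3.57% had a Notch1-IC peak of Phase 1 or Phase 2 within windows drawn in the same way. RBPJ strings were in the central 200 bases of 36.2% of Phase 1, 26.2% of Phase 2 and 4.42% of LP Notch1-IC peaks. The LP list came from cells that received no ligand and was the longest of the 3, so its peak at Cd247 stands as a value from unstimulated cells.

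A further site at the 3' end of Cd3e (11.32 kb after the start, chr9:44998129-44998457 in Phase 1) was occupied at both stages. RUNX1 scored 57.2 in LP (42.3% of the list as high or higher) and 102.5 in Phase 1 (20.5%), and its 200 central bases held RUNX and E-box strings. Med12 scored 31.6 and 58.1 and p300 54.7 and 61.7. RUNX1 peaks at the 3' ends of Cd3d and Cd3e were therefore listed before and after stimulation, and those around the Cd3e start after it only.

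**Figure D1:**
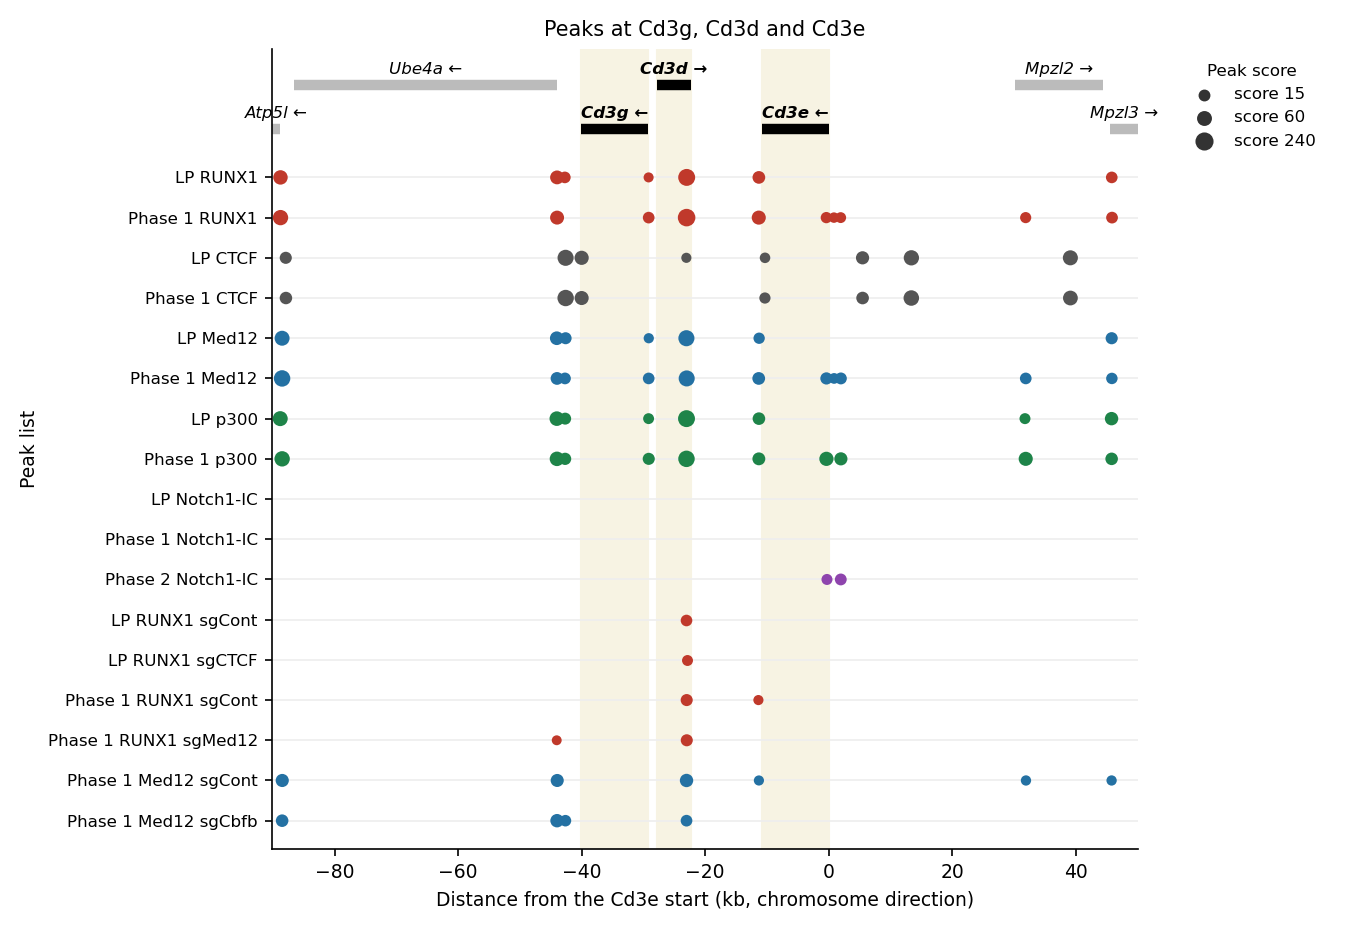
Peaks of the 17 lists at the Cd3g, Cd3d and Cd3e cluster by distance from the Cd3e start in kb (horizontal axis, chromosome direction), 1 row a list, with point area growing with the log of the peak score. Black bars are CD3 genes and gray bars neighbors; the 3 Phase 1 RUNX1 and Med12 points around 0 have no LP point above them, and the 2 Phase 2 Notch1-IC points lie on the outer ones.

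Cd247, the gene of the zeta chain, had 10 sites for RUNX1, Med12 or p300 within its 88.6 kb body, and 4 of them, all in intron 1, carried RUNX1, Med12 and p300 in LP. The most highly ranked lay 22.76 kb after the start (chr1:165811290-165811618 in Phase 1). RUNX1 scored 120.1 in LP (16.2% of the list as high or higher) and 148.8 in Phase 1 (11.0%), Med12 116.0 (17.7%) and 149.0 (6.17%), and p300 294.7 (3.90%) and 323.6 (2.68%). The LP Notch1-IC peak at the same place scored 27.0 (26.6%). This intronic site thus ranked within the top 17.7% of each of these 6 lists.

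The next site into the intron, 24.25 kb after the start, was Phase 1-specific. Its Phase 1 scores were 78.2 for RUNX1 (28.8% of the list as high or higher), 57.7 for Med12 (34.4%) and 144.2 for p300 (13.1%). No LP list had a peak there. Of the 9 Phase 1-specific RUNX1 peaks of both windows this one had the highest score, and no Notch1-IC peak accompanied it. Another Phase 1-specific RUNX1 peak lay 1.36 kb after the Cd247 start with a score of 23.7 (77.2%), beside a Phase 1 Med12 peak of 15.7 (97.5%), while p300 was listed at both stages (25.1 and 36.2). Both lists of RUNX1 held the sites 56.45 kb and 60.45 kb after the start, with scores of 65.9 and 74.0 in LP and 117.7 and 74.9 in Phase 1. Med12 at 56.45 kb scored 65.6 in LP and 87.5 in Phase 1. The p300 scores at 60.45 kb were 217.9 in LP (7.8%) and 169.2 in Phase 1 (10.0%).

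Sites of a single factor also lay in the Cd247 body, near the lower end of their lists. LP-only peaks were 1 p300 peak of score 23.9 at 17.77 kb (81.2% of the list as high or higher) and 1 Med12 peak of score 18.7 at 37.01 kb (91.5%). A Phase 1-only p300 peak of score 17.3 lay at 40.27 kb (93.0%). At 27.84 kb, RUNX1 (33.9 in both lists) and Med12 (32.1 and 25.9) were listed at both stages, but p300 (42.4) in LP only. At 78.39 kb, where the annotated ends of Cd247 and Pou2f1 overlap, Med12 (19.9) and p300 (15.3) were listed in Phase 1 only, and a peak there cannot be given to either gene.

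**Figure D2:**
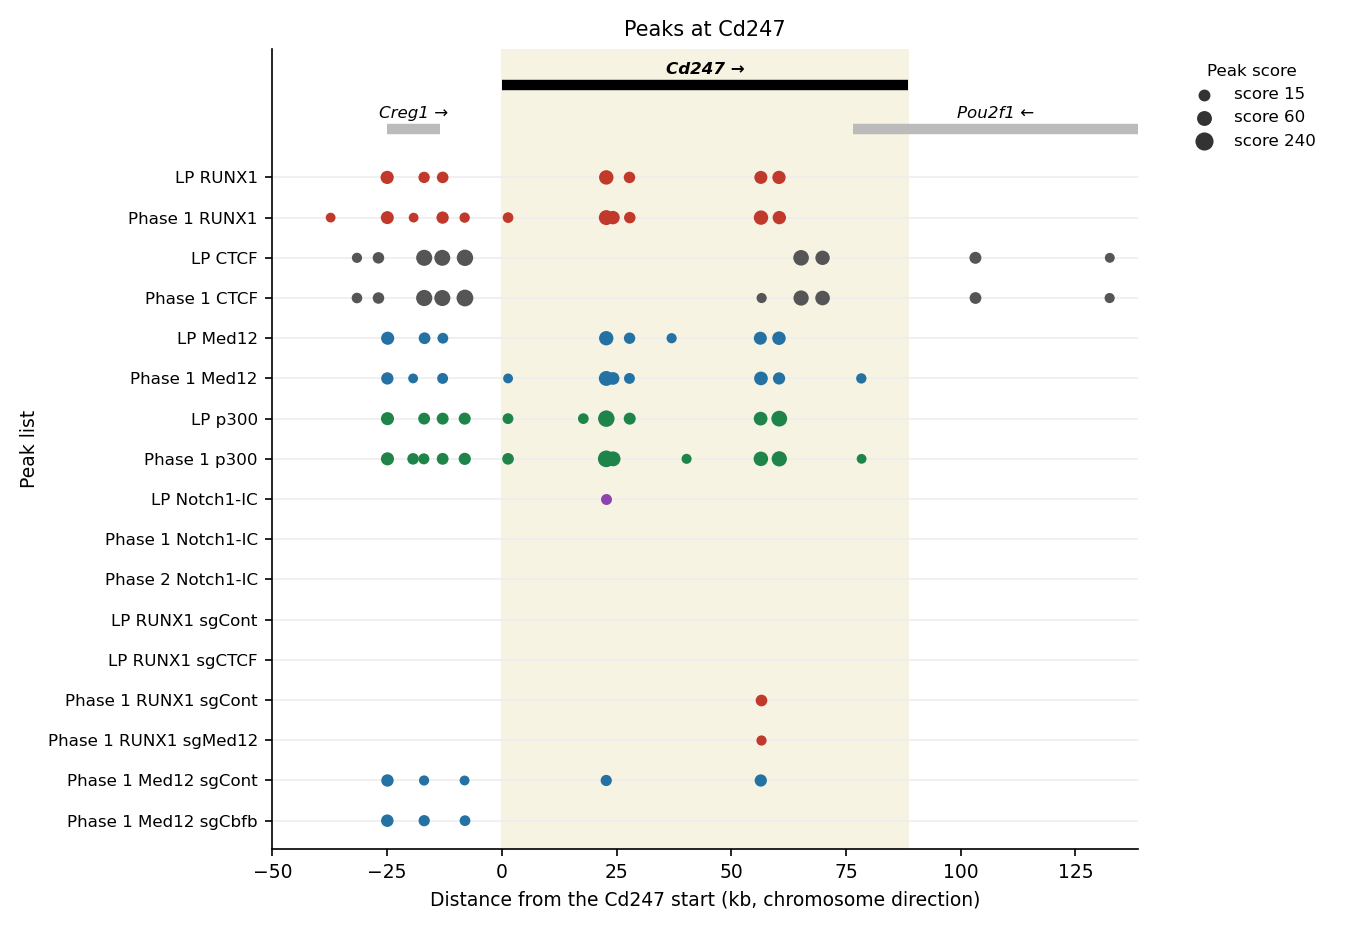
Peaks of the 17 lists at Cd247 by distance from its start in kb (horizontal axis), 1 row a list, with point area growing with the log of the peak score. The RUNX1, Med12 and p300 points inside the gene crowd between 22.76 and 60.45 kb after the start, and the CTCF points lie mostly outside this stretch.

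**Figure D3:**
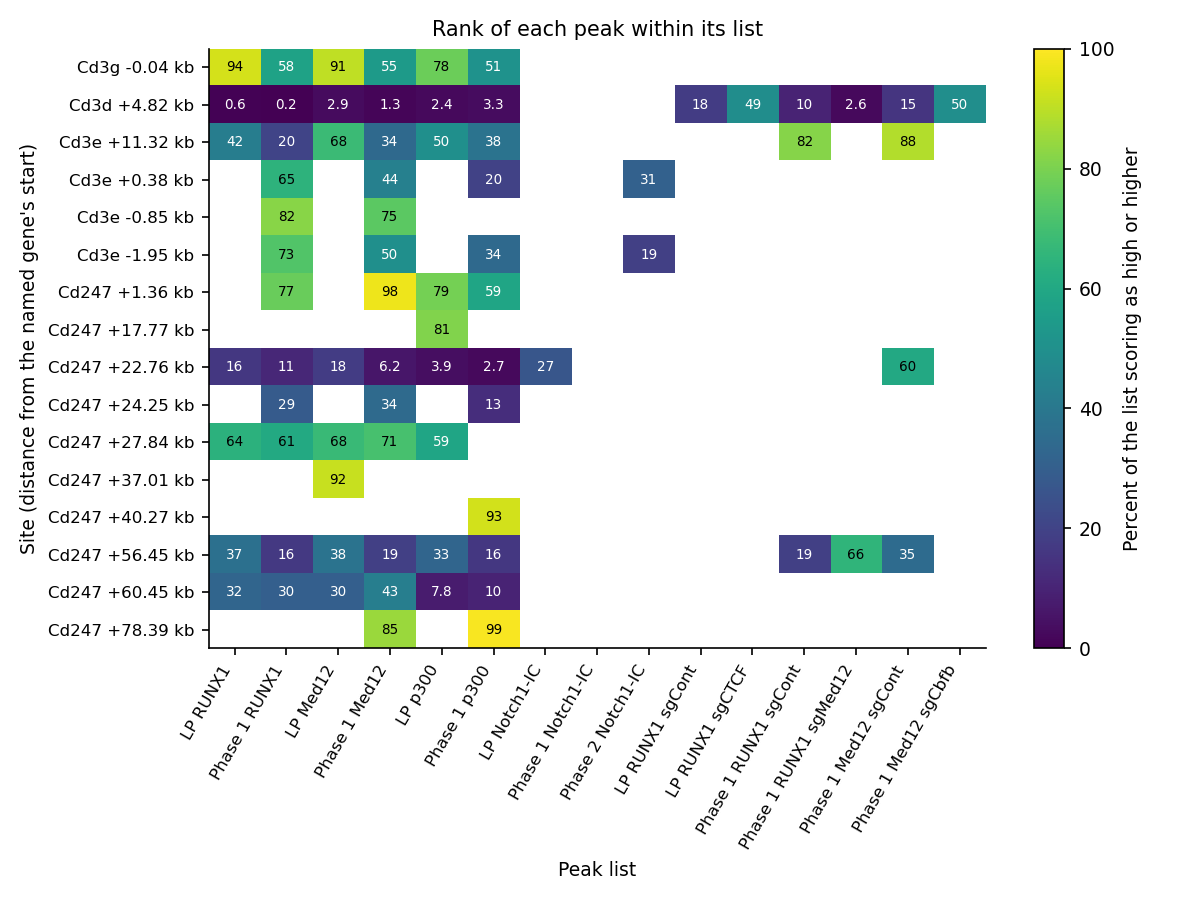
Rank of each RUNX1, Med12, p300 and Notch1-IC peak within its own list at the sites in or within 2 kb of the 4 gene bodies (rows, distance from the start of the named gene) in each list (columns); color and number give the percent of that list scoring as high or higher, and white means no peak. The Cd3d row is filled at both stages and in every guide list, and the 3 rows around the Cd3e start are filled in Phase 1 and Phase 2 columns only.

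To ask whether the CD3 genes gained or lost more sites than the genome at large upon Notch stimulation, peaks with no overlapping peak at the other stage were counted. Of 21 Phase 1 RUNX1 peaks, 9 were Phase 1-specific (42.9%, interval 24.5 to 63.5), 4 of 10 in the cluster and 5 of 11 at Cd247. Over all Phase 1 RUNX1 peaks the share was 30.7%, which lay within that interval. With a minimum score of 30 the share at the CD3 genes was 21.4% (3 of 14), below the 24.6% of all such peaks, so the order against the whole list turned. Of 14 LP RUNX1 peaks 2 were LP-specific (14.3%, interval 4.01 to 39.9), beside 16.8% of all LP RUNX1 peaks. The excess of Phase 1-specific over LP-specific RUNX1 peaks at the CD3 genes was thus also seen over the genome.

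The cofactors gave like counts. For Med12, 8 of 21 Phase 1 peaks were Phase 1-specific (38.1%, interval 20.8 to 59.1, all peaks 38.2%) and 2 of 15 LP peaks were LP-specific (13.3%, interval 3.74 to 37.9, all peaks 19.5%). For p300, 6 of 22 Phase 1 peaks were Phase 1-specific (27.3%, interval 13.2 to 48.2, all peaks 41.6%) and 2 of 18 LP peaks were LP-specific (11.1%, interval 3.10 to 32.8, all peaks 20.7%). With a minimum score of 30 the Phase 1-specific p300 share was 36.8% (7 of 19) beside 35.9%, so its order against the whole list turned. For CTCF, 1 of 17 peaks was specific in either stage (5.88%, interval 1.05 to 27.0), beside 9.55% of all LP and 8.35% of all Phase 1 CTCF peaks. In every one of these 8 shares the value over all peaks lay within the interval. Neighboring peaks are not independent and the interval covers counting error only, so a difference from the genome was not tested.

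**Figure D4:**
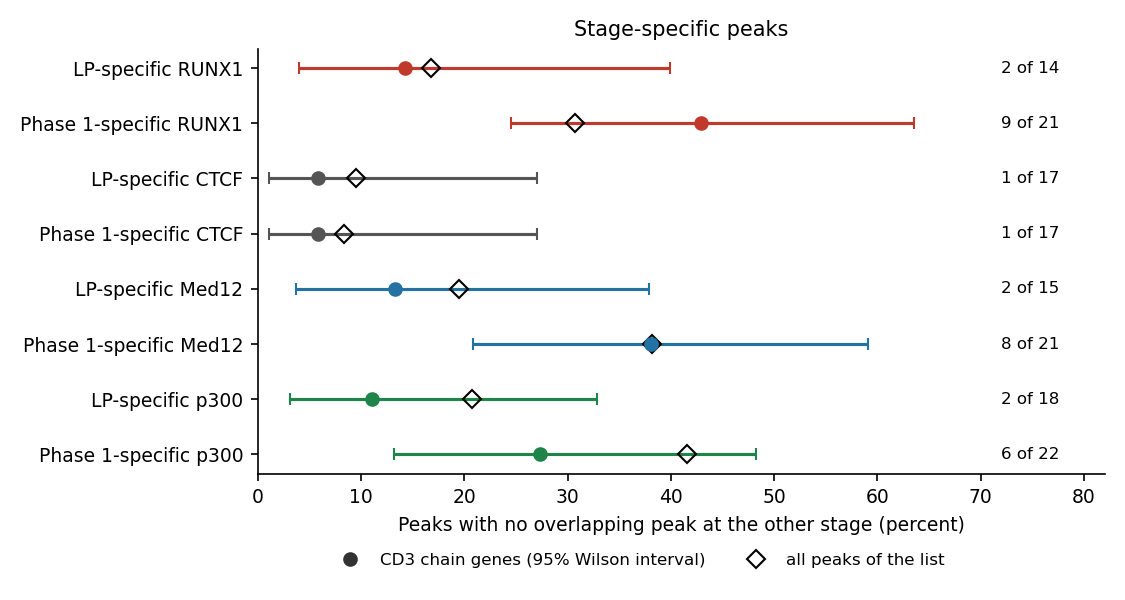
Share of peaks with no overlapping peak at the other stage (horizontal axis, percent) for each factor and stage, as filled points with 95% Wilson intervals for the CD3 genes and open diamonds for all peaks of the list. The diamond lies within the interval in all 8 rows, and 9 of 21 Phase 1 RUNX1 peaks is the largest share at the CD3 genes.

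Most RUNX1 peaks at the CD3 genes lay on Med12 and p300 peaks of the same stage, as over the genome. In Phase 1, 19 of 21 RUNX1 peaks overlapped a Med12 peak (90.5%, interval 71.1 to 97.3, all peaks 86.0%) and 18 of 21 a p300 peak (85.7%, interval 65.4 to 95, all peaks 87.8%). Those without a peak in the Med12 list of cells without guides were 2 peaks upstream of Cd247, with scores of 15.2 and 20.1. The latter, on the CTCF site 8.07 kb before the start, did overlap Med12 peaks in sgCont (15.9) and sgCbfb (24.5). Among the 9 Phase 1-specific RUNX1 peaks, 7 overlapped a Phase 1 Med12 peak (77.8%, interval 45.3 to 93.7, all such peaks 75.0%). The same 7 of 9 overlapped a Phase 1-specific Med12 peak (77.8%, beside 67.9% of all Phase 1-specific RUNX1 peaks). A Phase 1-specific p300 peak was found at 4 of the 9 (44.4%, interval 18.9 to 73.3, all such peaks 61.7%), namely at Cd3e intron 2, 1.95 kb before Cd3e, 24.25 kb into Cd247 and in an intron of Creg1. At the Cd247 start, 8.07 kb before it and in Mpzl2, a p300 peak was already listed in LP.

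The strings were counted in the central 200 bases of these peaks, without a test. A RUNX string was in 9 of the 21 Phase 1 RUNX1 peaks at the CD3 genes, beside 47.6% of the whole list, and in 3 of the 9 Phase 1-specific ones, beside 53.8% of all Phase 1-specific peaks. E-box strings were in 10 of the 21, beside 30.2%, and in 4 of the 9, beside 27.3%. The GATA string was in 4 of the 21, beside 8.02%, and in 3 of the 9, beside 12.4%. ETS strings were in 4 of the 21 (31.9%) and 2 of the 9 (28.0%), the RBPJ string in 2 (5.28%) and 1 (7.05%), and the TCF string in 1 (12%) and 1 (15%). In these Phase 1 RUNX1 peaks the RUNX counts were thus below the shares of the whole lists and the E-box and GATA counts above them, all with few peaks. In other lists the RUNX count went the other way, with 8 of 14 LP RUNX1 peaks beside 42.0% and 10 of 21 Phase 1 Med12 peaks beside 43.0%. E-box strings were in 7 of 14 LP RUNX1 peaks beside 33.2% and in 11 of 21 Phase 1 Med12 peaks beside 30.3%. Of the 3 Phase 1-specific peaks around the Cd3e start, the middle one had a RUNX string and both outer ones had E-box strings. In intron 2 the central 200 bases of the Phase 2 Notch1-IC peak (27.5), which has another centre, did hold a RUNX string and an E-box string.

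CTCF sites flanked both loci and differed little between stages. In the cluster the most highly scored CTCF peak lay beyond the 3' end of Cd3g, 13.45 kb after its start, with 249.2 in LP and 287.4 in Phase 1. It was followed by peaks 13.36 kb before the Cd3e start (173.4 and 191.8) and in an intron of Mpzl2 (156.5 and 139.6). Weaker CTCF peaks at both stages lay at the end of Cd3g (107.7 and 102.2), in the last exon of Cd3e (22.1 and 30.1) and 5.47 kb before Cd3e (70.6 and 55.3). At Cd247 the strongest lay 8.07 kb (285.4 and 343.5), 16.92 kb (250.1 and 264.5) and 12.90 kb (232.9 and 244.9) before the start. A pair stood in the gene at 65.23 kb (199.0 and 169.9) and 69.91 kb (116.6 and 129.2). Beyond the 3' end of Cd247 the window held only weaker CTCF peaks, in Pou2f1, with 42.0 and 38.6 and with 16.1 and 18.2. The CTCF core was found in 13 of 17 CTCF peaks at each stage, beside 62.9% of all LP and 63.4% of all Phase 1 CTCF peaks. In the cluster the core lay on the minus strand in the peaks beyond Cd3g, in Mpzl2 and near the Atp5l promoter. It lay on the plus strand in those at the Cd3g end, in the last exon of Cd3e and 13.36 kb before Cd3e. The peaks 5.47 kb before Cd3e and, in LP, in the last exon of Cd3d had no core. At Cd247 the core was on the plus strand 16.92 kb before the start and at 65.23 kb, and on the minus strand at 69.91 kb. The peaks 8.07 kb and 12.90 kb before the Cd247 start had none.

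Since LP-specific RUNX1 peaks on CTCF sites are of interest in the study, LP RUNX1 peaks were set against LP CTCF peaks. Of 14 LP RUNX1 peaks, 4 overlapped an LP CTCF peak (28.6%, interval 11.7 to 54.6, all peaks 23.2%). Both LP-specific RUNX1 peaks did, beside 36.8% of all LP-specific RUNX1 peaks, with scores of 36.3 beyond Cd3g and 32.0 in Creg1. The site beyond Cd3g had Med12 (42.9 and 37.9) and p300 (41.7 and 47.2) at both stages, so RUNX1 was the only factor listed there in LP and not in Phase 1. The site in Creg1 had p300 at both stages (39.6 and 27.7) and Med12 in LP (37.9). It was absent from the Phase 1 Med12 list without guides but present in both Phase 1 Med12 lists with guides (18.6 in sgCont and 31.0 in sgCbfb), so Med12 there was not LP-specific over all lists. Upstream of Cd247 a CTCF site 8.07 kb before the start had the opposite order, with RUNX1 (20.1) in Phase 1 only. Windows of 22.9% of protein-coding genes held an LP-specific RUNX1 peak on an LP CTCF peak.

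After Cbfb guides, 6 of the 11 sgCont Med12 peaks at the CD3 genes were also in the sgCbfb list (54.5%, interval 28.0 to 78.7), beside 67.8% of all 19053 sgCont Med12 peaks. With a minimum score of 30 the share was 80.0% (4 of 5) beside 75.6%, so the order against the whole list turned. The 4 peaks at the CD3 genes themselves were the Cd3d last exon (75.9 in sgCont and 36.9 in sgCbfb), the Cd3e 3' end (18.4 in sgCont) and Cd247 intron 1 at 22.76 kb (29.9) and 56.45 kb (47.1). Of these only the Cd3d peak was in the sgCbfb list, where 49.5% of peaks scored as high or higher, against 15.4% in sgCont. The other 5 that were kept were the promoters of Creg1, Atp5l and Ube4a and a pair of CTCF sites upstream of Cd247. The other 2 missing ones lay in Mpzl2 (19.8) and Mpzl3 (19.6).

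Split by place, a division chosen after these values were seen, the list-wide shares differed widely. Of all sgCont Med12 peaks, 92.3% of those at promoters were also in sgCbfb, and 49.8% of those elsewhere. Outside promoters the share was 68.9% with a Phase 1 CTCF peak and 44.8% without one. At the CD3 genes the same classes held 3 of 4, 2 of 3 and 1 of 4. The missing Med12 peaks at the Cd3e 3' end and 22.76 kb into Cd247 fell in the last class, in which most peaks of the whole list were missing as well. The one 56.45 kb into Cd247 overlapped a weak Phase 1 CTCF peak (18.4), which was the only Phase 1-specific CTCF peak of the windows. The sgCbfb list also held a peak that sgCont lacked, on the CTCF site beyond Cd3g (34.9). The Phase 1-specific sites around the Cd3e start were in neither guide list, so they give no value for this comparison.

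The RUNX1 lists from guide-bearing cells were short and held few peaks in the windows. In LP the Cd3d peak was the only one in the windows, with 35.8 in sgCont (17.6% of the list as high or higher) and 26.5 in sgCTCF (49.1%). This was 1 of 1 sgCont peak kept, with an interval of 20.7 to 100, beside 59.1% of all 975. In Phase 1, sgCont RUNX1 peaks lay at the Cd3d site (43.5), at Cd247 56.45 kb after the start (36.4) and at the Cd3e 3' end (18.2). The first of these were also in sgMed12, at 43.3 for Cd3d and 18.8 for Cd247, whereas the Cd3e 3' end was not. This gave 2 of 3 kept (66.7%, interval 20.8 to 93.9, all peaks 71.0%). The sgMed12 list had 1 further peak, at the Ube4a promoter (16.1). The study describes these ChIPs as made from limited cells, and a missing weak peak cannot be told from a weaker list.

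Other genes of the T cell receptor pathway were read in windows drawn in the same way. A Phase 1-specific RUNX1 peak was found at 22 of 25 of them, beside 52.2% of 21911 protein-coding genes, with a median of 2 peaks beside 1. Each of the 4 CD3 genes had such peaks, 5 for Cd247, 4 for Cd3e and 3 each for Cd3d and Cd3g, whose windows share them. An LP-specific RUNX1 peak was found at 19 of the 25, beside 38.3%, so its share was above that of all genes for both stages. Peaks that were Phase 1-specific for both RUNX1 and Med12 were found at 20 of the 25, beside 41.2%, with 7 at the kinase gene Fyn and 4 each at Plcg1, a phospholipase, and at the adaptor Grap2. An LP-specific RUNX1 peak on CTCF was found at 13 of the 25, beside 22.9%, including Zap70 and Lck with 2 each and Csk, which restrains Lck, with 4. A Notch1-IC peak of Phase 1 or Phase 2 was found at 4 of the 25, beside 3.57%, with 2 peaks at Ptcra, which encodes the pre-T cell receptor alpha chain, and 1 each at Lck, Lat and Pag1. The coreceptor gene Cd8a, the kinase gene Syk and Ptcra had no Phase 1-specific RUNX1 peak. Longer genes have longer windows, and this was not adjusted for.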

How the data were processed

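ChIP-seq peak lists of 17 groups of 2 replicates (34 of 38 samples) were used. Per the labels and methods, the authors aligned reads to mm10 with Bowtie 1.1.1, called peaks with HOMER in factor mode against a matched control, kept peaks reproducible between replicates by the irreproducible discovery rate, and annotated them. The deposited peak score is HOMER's normalized score. No score was below 15 in any list. Read depth per sample is unknown here, so no difference in list length was adjusted for.

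Peaks were read with Python 3.11.15, numpy 2.4.6 and pandas 2.3.3. Gene bodies were from GENCODE M21. Peaks sharing at least 1 bp were called overlapping, and a peak was called stage-specific where the other stage's list had no overlapping peak. Wilson intervals were computed with statsmodels 0.14.6, and sequences were read with pysam 0.24.0 around peak centres (200 bases). The overlap and window functions were tested on simulated peaks and against bedtools 2.31.1. The 4 genes, the gene list and the rules were chosen with earlier results of these data known. Named sites were every peak of lists with under 10 peaks in the windows, otherwise the 3 highest-scored peaks of a list at each locus, peaks within 1 kb of a CD3 gene start and stage-specific RUNX1, Med12 or p300 peaks in a CD3 gene body, and further sites were added after their values were seen. The values of some peaks taken in by this rule are not given. Like-pattern genes were the 3 protein-coding genes with the highest ratio of summed minima to summed maxima of peak counts over the 17 lists. Windows, overlap rules, score minimum, list length and promoter peaks were varied. The sequence of 1 site at Cd247 is not reported here.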

Additional observations from a re-analysis of the deposited data

How the results depend on the processing

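Of 102 values recomputed under other windows (10 kb or 100 kb), overlap rules (50% of both peaks, or centres within 500 bp), a minimum score of 30, equal numbers of top-scored peaks, or without promoter peaks, 96 stayed within the counting interval of the reported share or within 1.5 times the reported count. This is a weak criterion, since intervals from few peaks are wide (20.7 to 100 for 1 of 1) and the variants reuse most peaks. With the minimum score of 30 in both lists, the Phase 1-specific share of RUNX1 fell to 21.4% (3 of 14 peaks, beside 24.6% of all such peaks), which reverses its order against the whole list. The LP-specific CTCF share became 0% (0 of 13), the share of sgCont Med12 peaks also in sgCbfb 80.0% (4 of 5, beside 75.6%, which also turns its order), that of sgCont RUNX1 peaks also in sgCTCF 0% (0 of 1, since the sgCTCF peak at Cd3d scored 26.5), and the Notch1-IC count 1. With 100 kb windows the Notch1-IC count became 5. The minimum score of 30 also turned the order against the whole list for shares that stayed within their intervals. These were LP-specific RUNX1 (15.4% beside 13.9%), Phase 1-specific Med12 (33.3% beside 30.7%) and Phase 1-specific p300 (36.8% beside 35.9%). The others were Phase 1 RUNX1 peaks with p300 (92.9% beside 88.9%) and sgCont RUNX1 peaks also in sgMed12 (50.0% beside 44.9%). The sgCTCF share, 0% beside 58.5%, turned as well. No paired analysis was possible because each list combines both replicates, and for the same reason no replicate could be left out.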

Other observations

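Over the 17 lists the genes outside the windows whose peak counts were most like those of the Cd3e, Cd3d and Cd3g cluster were Muc13 (ratio of summed minima to summed maxima 0.9), Specc1l (0.88) and Gper1 (0.876), and those most like Cd247 were Rfc2 (0.922), Fxyd7 (0.914) and Pam16 (0.914). None of the 3 genes most like the cluster had a Phase 2 Notch1-IC peak. Over all protein-coding genes, 3.57% had a Notch1-IC peak of Phase 1 or Phase 2 in their window, so such an absence is common. The likeness rests on counts and does not compare positions or scores.

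The nearest peaks inside the edges were an LP p300 peak of score 152.7 at the Atp5l promoter (1.26 kb from the edge) and a Phase 1 RUNX1 peak of 37.8 in Mpzl3 (4.15 kb) in the cluster, and a Phase 1 RUNX1 peak of 15.2 (12.69 kb) and an LP CTCF peak of 16.1 in Pou2f1 (6.08 kb) at Cd247. The nearest outside were a Phase 1 CTCF peak of 190.8 (3.18 kb) and a Phase 1 p300 peak of 24.3 (17.82 kb) in the cluster, and an LP CTCF peak of 269.3 (2.31 kb) and a Phase 1 Med12 peak of 17 (5.68 kb) at Cd247.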
